A study of Mus musculus with 15 samples.

Results

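The 10 genes described here carry insulin signalling in the liver and the release of glucose that insulin holds back. They are the receptor Insr, its adaptors Irs1 and Irs2, the kinases Akt1 and Akt2, the transcription factor Foxo1, the inhibitor Socs3, and the targets Pck1, G6pc and Igfbp1. They were taken by symbol from the probe sets annotated to 1 gene alone, and each gene was read at its brightest such probe set by mean level over 15 arrays. This gave 10 of 18193 genes, read through 10 of their 24 probe sets. RNA of whole livers from adult males was hybridised to Affymetrix Mouse Genome 430 2.0 arrays, 1 pool of livers per array, in 5 groups of 3 pools. IUGR F1 pools (4 to 6) came from males whose calories were cut by 50% before birth, and ON F1 pools (7 to 9) from males overfed while they were suckled. IUGR F2 (10 to 12) and ON F2 pools (13 to 15) came from adult sons of those males, which carried no such exposure of their own in the labels. The control pools (1 to 3) mixed livers of both generations, so neither generation had a control group of its own. Strain and age in weeks were not given in the sources used here, and the number of livers per pool is read as 3 from the titles. The study asked whether expression patterns of exposed males return in their sons.

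Insulin binds its receptor, which phosphorylates the IRS adaptors. These recruit a lipid kinase that activates AKT, and AKT phosphorylates FOXO1, which then leaves the nucleus. FOXO1 in the nucleus raises transcription of Pck1, G6pc, Igfbp1 and Irs2, so in a fed liver insulin keeps these genes low, and in a fasted liver glucagon and glucocorticoids raise several of them. Pck1 encodes the cytosolic enzyme that commits carbon to new glucose, and G6pc the enzyme that frees glucose for the blood.

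The liver identity of the pools was checked first. The hepatocyte gene Alb lay between 14.41 and 14.49 in the 15 pools (log2 RMA level, the scale of all levels below). The list of pancreatic islet markers, 9 of 10 measured, had a mean level of 4.07 to 4.31, near the background of the array. The exocrine pancreas list, 11 of 15 measured, had a mean level of 9.08 in ON F2 pool 13 and of 5.05 to 5.32 in the other pools. Dbp, a clock output gene that peaks once a day in liver, stood at 9.84, 10.71 and 6.54 in ON F2 pools 13 to 15 and at 5.40, 5.34 and 6.23 in ON F1 pools 7 to 9. It stood at 5.30, 9.77 and 9.08 in IUGR F1, at 5.46, 6.18 and 7.97 in IUGR F2 and at 5.88, 10.07 and 6.89 in control pools. Whole liver is a mixture, so fewer cells of a type and less RNA per cell cannot be told apart.

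Pck1 separated the ON generations. It stood at 12.08, 11.63 and 10.66 in ON F2 pools 13, 14 and 15, against 9.17, 9.88 and 10.39 in ON F1 pools 7, 8 and 9. Every ON F2 pool lay above every ON F1 pool. Pck1 was higher by 1.64 ± 0.38 in ON F2 (log2 difference ± SE, limma over all 18193 genes, adjusted p = 0.0470), a 3.13-fold difference. The 95% interval of that difference ran from 0.84 to 2.45. It was the 1 member of 10 called between the ON generations at an adjusted p under 0.05, where 1.43% of all genes were called. The call did not hold in 11 of 18 alternative settings, in which adjusted p ranged from 0.0127 to 0.421 over all 18, while the difference lay between 1.06 and 2.04. With the clock output score as a covariate it was 1.06 ± 0.41 (limma adjusted p = 0.421). Without pool 13 it was 1.33 ± 0.39 (adjusted p = 0.122), and without ON F1 pool 7 it was 1.32 ± 0.39 (adjusted p = 0.145). Among the 18, the settings with acute phase or glucocorticoid scores, and without pools 8 and 13 together, were added after seeing the data.

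Markers of other liver cells were also compared between the ON generations. Of 13 Kupffer cell markers, 12 were higher in ON F2, with a median difference of 0.26. Of these markers 3 had an unadjusted p under 0.05 (19.3% of all genes), and limma called 0 (1.43% of all genes). Their mean level was 6.56 to 7.14 in ON F2 pools and 6.44 to 6.60 in ON F1 pools, so the groups overlapped. Of 7 measured bile duct cell markers, 5 were lower in ON F2, with a median of -0.17 and a mean level of 4.71 to 4.84 in ON F2 pools and 5.04 to 5.07 in ON F1 pools. Sox9, a transcription factor of bile duct cells, was the 1 of them called (1.43% of all genes), at -0.83 ± 0.17 (limma adjusted p = 0.0315). The mean levels of the lymphocyte, stellate and sinusoidal endothelial lists overlapped between the ON generations. In ON F2 pools they were 5.05 to 5.30, 7.11 to 7.30 and 6.51 to 6.89 in that order. In ON F1 pools they were 5.16 to 5.25, 7.07 to 7.58 and 6.70 to 6.89. The part of any of these markers in the Pck1 result was not tested.

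**Figure D1:**
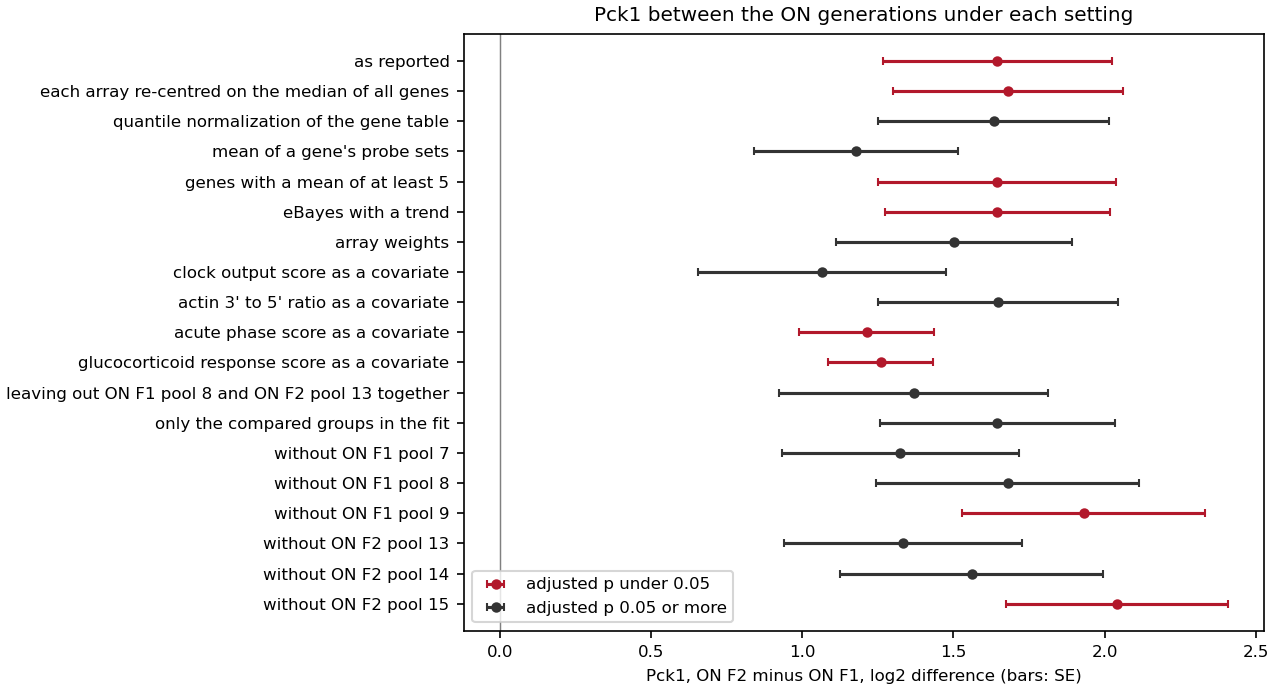
Pck1 in ON F2 minus ON F1 (x axis, log2 difference with SE) as reported and under 18 alternative settings. All values lie between 1.06 and 2.04, and red points, 7 of the 18 alternatives and the reported value, have an adjusted p under 0.05.

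**Figure D2:**
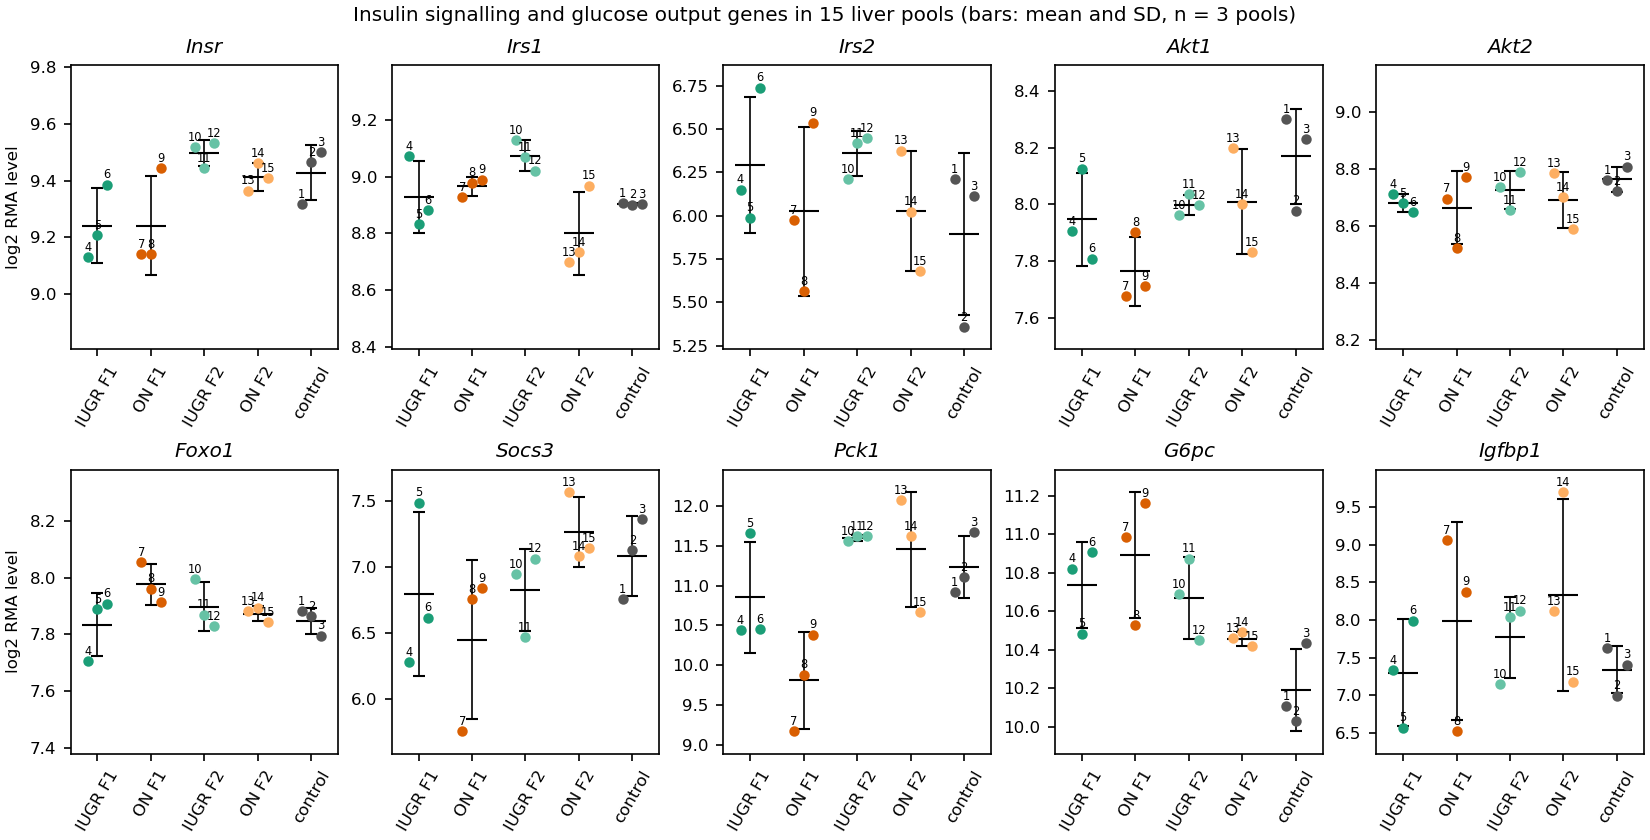
Log2 RMA level of each of the 10 genes (1 panel each, y axes of different spans) in the 15 pools. Points are pools, numbered, and bars are the mean and SD of 3 pools; Pck1 is lowest in ON F1 and the mean of G6pc is lowest in the control pools.

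In the other groups every pool had Pck1 between 9.17 and 12.08, the levels of ON F1 pool 7 and ON F2 pool 13. IUGR F1 pools 4, 5 and 6 had 10.44, 11.66 and 10.46, IUGR F2 pools 10, 11 and 12 had 11.56, 11.62 and 11.62, and control pools 1, 2 and 3 had 10.92, 11.11 and 11.67. The IUGR F2 pools were the most alike, with an SD of 0.04 against 0.39 to 0.72 in the other 4 groups. In order of their means the groups ran from ON F1 (9.81) through IUGR F1 (10.85), control (11.23) and ON F2 (11.46) to IUGR F2 (11.60), and from IUGR F1 upwards no neighbours in that order differed by more than the within-group SD of 0.56. Against control, Pck1 differed by -1.42 ± 0.38 in ON F1 with no overlap between the groups (limma adjusted p = 0.163). With the glucocorticoid response score as a covariate this was -0.65 ± 0.19 (adjusted p = 0.321), and with the acute phase score -0.85 ± 0.23 (adjusted p = 0.220). IUGR F1 differed from control by -0.38 ± 0.38, and both F2 groups lay within 1 SE of it. A moderated F test over the 5 groups did not call it (limma adjusted p = 0.108).

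Pck1 had 2 further probe sets on the array. The dimmer one, at a mean of 6.06, stood at 7.78, 6.82 and 5.39 in ON F2 pools and at 4.42, 4.48 and 5.70 in ON F1 pools. It gave 1.80 ± 0.57, a difference close to that of the brighter probe set, although ON F2 pool 15 lay below ON F1 pool 9 here. The dimmest gave 0.09 ± 0.26. Averaging the 3 probe sets, with this dimmest one included, gave 1.18 ± 0.34 (limma adjusted p = 0.0956).

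G6pc had its lowest group mean in the control pools. It stood at 10.82, 10.48 and 10.91 in IUGR F1, at 10.98, 10.53 and 11.16 in ON F1, at 10.69, 10.87 and 10.45 in IUGR F2 and at 10.46, 10.49 and 10.42 in ON F2 pools, against 10.11, 10.03 and 10.43 in control pools. Each pool of IUGR F1, ON F1 and IUGR F2 lay above all control pools, and ON F2 pool 15 lay just under control pool 3. Against control, IUGR F1 differed by 0.55 ± 0.16, ON F1 by 0.70 ± 0.16, IUGR F2 by 0.48 ± 0.16 and ON F2 by 0.27 ± 0.16. In limma the adjusted p was 0.432, 0.111, 0.652 and 0.452 in that order, so none passed. These 4 comparisons share the same 3 control pools. The mean of the 4 groups differed from control by 0.50 ± 0.13, a 1.41-fold difference with a 95% interval of 0.23 to 0.77 (limma adjusted p = 0.314, with 0% of all genes called). For 12 pools against 3 the 95% interval lies above 0, but the adjustment over 18193 genes is not passed.

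The group means of G6pc and Pck1 did not follow the same order. In ON F1 pools G6pc had its highest group mean (10.89 ± 0.33, SD, n = 3) and Pck1 its lowest (9.81 ± 0.61, SD, n = 3). ON F2 differed from ON F1 in G6pc by -0.44 ± 0.16 (limma adjusted p = 0.160), with all ON F2 pools below all ON F1 pools, where Pck1 was higher by 1.64. G6pc was read by 1 probe set only.

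Igfbp1, a secreted binding protein of insulin-like growth factors that insulin represses, varied most between pools of a group. It stood at 7.33, 6.57 and 7.99 in IUGR F1, at 9.06, 6.52 and 8.38 in ON F1, at 7.15, 8.03 and 8.12 in IUGR F2 and at 8.12, 9.70 and 7.18 in ON F2 pools, against 7.62, 7.00 and 7.41 in control pools. The highest pool, ON F2 pool 14, and the lowest, ON F1 pool 8, were 3.17 apart. Its SD within groups was 0.92, larger than that of 99.8% of all genes, and for Pck1 it was 0.56, larger than 99.2%. Against control, ON F1 differed by 0.64 ± 0.62 and ON F2 by 0.99 ± 0.62, with a 95% interval of -0.34 to 2.32 for ON F2 (limma adjusted p = 0.471). The IUGR groups lay within 1 SE of control, and all groups overlapped with it.

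The regulatory sequences of the 3 targets are shown because textbook accounts place elements of insulin or glucagon action in their start regions. Given are the 250 bases before the annotated start, from RefSeq on GRCm38.p6, 5′ to 3′ on the plus strand for each gene, with motif matches in capitals. Pck1 lies at chr2:173152823-173153072, G6pc at chr11:101367466-101367715 and Igfbp1 at chr11:7197537-7197786.
Pck1: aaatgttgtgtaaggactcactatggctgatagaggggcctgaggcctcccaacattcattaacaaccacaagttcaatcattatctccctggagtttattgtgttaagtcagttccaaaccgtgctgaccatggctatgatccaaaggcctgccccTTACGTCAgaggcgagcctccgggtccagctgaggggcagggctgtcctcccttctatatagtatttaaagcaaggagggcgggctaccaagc
G6pc: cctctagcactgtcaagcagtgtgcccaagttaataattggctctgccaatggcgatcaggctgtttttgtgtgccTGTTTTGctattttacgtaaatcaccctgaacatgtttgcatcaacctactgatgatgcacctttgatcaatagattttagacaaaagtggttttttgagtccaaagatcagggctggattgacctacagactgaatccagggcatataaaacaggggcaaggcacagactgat
Igfbp1: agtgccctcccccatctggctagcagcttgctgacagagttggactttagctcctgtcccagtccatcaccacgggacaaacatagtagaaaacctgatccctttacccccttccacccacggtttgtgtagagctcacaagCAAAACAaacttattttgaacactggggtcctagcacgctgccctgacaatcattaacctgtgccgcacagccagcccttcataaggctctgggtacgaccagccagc
In Pck1 the capitals mark a cAMP response element, the site of the glucagon signal, searched as TNACGTCA and found 93 to 86 bases before the start. In G6pc and Igfbp1 they mark the insulin response sequence that FOXO1 binds, searched as CAAAACA on both strands. It lies on the minus strand of G6pc, 174 to 168 bases before the start, and on the plus strand of Igfbp1, 108 to 102 bases before it. Within these 250 bases the Pck1 window held no exact match to CAAAACA, and the G6pc and Igfbp1 windows held none to TNACGTCA. Sites farther upstream, or spelled otherwise, would not be found by this search. These absences therefore do not show that a gene lacks either element. No match overlapped another.

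Windows were found for 9 of the 10 genes, 13 windows in all, and Insr had none in the table. The insulin response sequence was also matched in Irs1, with 2 matches, and in Irs2, with 1. Of 32817 such windows, 5.56% held that sequence and 2.52% the cAMP element. The forkhead consensus GTAAACA, in 3.16% of windows, was matched in 1 of the 2 Akt1 windows. The STAT site TTCCNGGAA, in 0.914% of windows, was matched in none of the 13. A match is a run of letters and was not measured as a bound site.

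Insr and Irs1 spanned narrow ranges over the 15 pools, of 0.40 and 0.43, and Irs2 a wider one of 1.38. Insr stood at 9.13, 9.21 and 9.39 in IUGR F1, at 9.14, 9.14 and 9.44 in ON F1, at 9.52, 9.44 and 9.53 in IUGR F2 and at 9.36, 9.46 and 9.41 in ON F2 pools, against 9.32, 9.46 and 9.50 in control pools. Both exposed F1 groups held the lowest pools, with differences from control of -0.19 ± 0.09 each (limma adjusted p = 0.618 in IUGR F1 and 0.396 in ON F1). All IUGR F2 pools lay above all IUGR F1 pools, by 0.26 ± 0.09 on average (limma adjusted p = 0.349). ON F2 differed from ON F1 by 0.17 ± 0.09 (adjusted p = 0.336). The 2 dim Insr probe sets, with means of 4.34 and 4.87, differed in ON F1 from control by -0.06 ± 0.10 and 0.06 ± 0.11.

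Irs1, which in mouse liver shares insulin's metabolic signal with Irs2, stood at 9.07, 8.83 and 8.88 in IUGR F1, at 8.93, 8.98 and 8.99 in ON F1, at 9.13, 9.07 and 9.02 in IUGR F2 and at 8.70, 8.73 and 8.97 in ON F2 pools, against 8.91, 8.90 and 8.90 in control pools. All IUGR F2 pools lay above all ON F2 pools, and the difference was 0.27 ± 0.08 (limma adjusted p = 0.323, with 0.0055% of all genes called). The lineage by generation contrast of Irs1, which asks whether sons differ from fathers by another amount in the IUGR than in the ON lineage, was 0.31 ± 0.12 (limma adjusted p = 0.571).

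Irs2, the adaptor that insulin itself represses through FOXO1, had overlapping pools in most groups. It stood at 6.15, 5.99 and 6.74 in IUGR F1, at 5.98, 5.57 and 6.54 in ON F1, at 6.21, 6.42 and 6.45 in IUGR F2 and at 6.38, 6.02 and 5.68 in ON F2 pools, against 6.21, 5.36 and 6.12 in control pools. The pools of a group spread widely, with a within-group SD of 0.39. The IUGR F2 pools, at 6.21 to 6.45, lay above the control pools, if narrowly, with a difference of 0.47 ± 0.27 (limma adjusted p = 0.761). IUGR F1 differed from control by 0.40 ± 0.27, and ON F1 and ON F2 by 0.13 ± 0.27 each.

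Akt1 lay lowest in ON F1. It stood at 7.91, 8.13 and 7.81 in IUGR F1, at 7.68, 7.90 and 7.71 in ON F1, at 7.96, 8.04 and 8.00 in IUGR F2 and at 8.20, 8.00 and 7.83 in ON F2 pools, against 8.30, 7.98 and 8.23 in control pools. All ON F1 pools lay below all control pools, a difference of -0.40 ± 0.11 with a 95% interval from -0.65 to -0.16 (limma adjusted p = 0.167). The other groups differed from control by -0.22 ± 0.11 (IUGR F1), -0.17 ± 0.11 (IUGR F2) and -0.16 ± 0.11 (ON F2). Akt1 had 3 dimmer probe sets. In ON F1 against control they gave -0.33 ± 0.15, 0.14 ± 0.08 and -0.08 ± 0.12, so 1 of the 3 pointed the other way, and the mean of all 4 gave -0.17 ± 0.08 (limma adjusted p = 0.372). With the glucocorticoid response score as a covariate the brightest probe set gave -0.22 ± 0.10 (adjusted p = 0.467).

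Akt2, the main AKT form of insulin action in mouse liver, differed little at its brightest probe set. Its 15 pools spanned 0.29, from 8.52 in ON F1 pool 8 to 8.81 in control pool 3. Against control, IUGR F1 differed by -0.08 ± 0.08 and ON F1 by -0.10 ± 0.08, and both F2 groups lay within 1 SE of control. The widest reaching of the 4 intervals, that of ON F1, ran from -0.27 to 0.07. The dimmer Akt2 probe sets, with means of 5.93 and 5.46, gave -0.27 ± 0.11 and -0.13 ± 0.12 in ON F1 against control. In IUGR F1 they gave -0.11 ± 0.11 and -0.25 ± 0.12. Each Akt2 probe set had a negative difference from the same control pools in every group. Foxo1 spanned 0.35, from 7.71 in IUGR F1 pool 4 to 8.05 in ON F1 pool 7. Its 3 ON F1 pools, at 8.05, 7.96 and 7.91, lay above the control pools at 7.88, 7.87 and 7.80, by 0.13 ± 0.08 (limma adjusted p = 0.469). Its 3 dimmer probe sets gave 0.04 ± 0.09, -0.02 ± 0.10 and 0.22 ± 0.11 in the same comparison. These are transcript levels, and the phosphorylation through which insulin sets AKT and FOXO1 activity is not measured by the array.

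Socs3, a feedback inhibitor that interleukin 6 and growth hormone induce and that blocks the insulin receptor and its adaptors, was lowest in ON F1 pool 7. It stood at 6.28, 7.48 and 6.62 in IUGR F1, at 5.76, 6.75 and 6.84 in ON F1, at 6.94, 6.47 and 7.06 in IUGR F2 and at 7.56, 7.08 and 7.14 in ON F2 pools, against 6.76, 7.13 and 7.36 in control pools. All ON F2 pools lay above all ON F1 pools, and the difference was 0.81 ± 0.31 (limma adjusted p = 0.170). Against control, Socs3 differed by -0.63 ± 0.31 in ON F1 (adjusted p = 0.376) and by 0.18 ± 0.31 in ON F2 (adjusted p = 0.821). Both other Socs3 probe sets pointed the same way between the ON generations, at 1.06 ± 0.51 and 1.09 ± 0.46. The acute phase gene Saa1, which interleukin 6 also induces, stood at 9.14 in ON F1 pool 7 and between 11.54 and 13.96 in the other 14 pools. With the acute phase score as a covariate the Socs3 difference between the ON generations was 0.53 ± 0.25 (limma adjusted p = 0.284). With the clock output score it was 0.46 ± 0.36 (adjusted p = 0.723), and without pool 7 it was 0.47 ± 0.29 (adjusted p = 0.455).

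**Figure D3:**
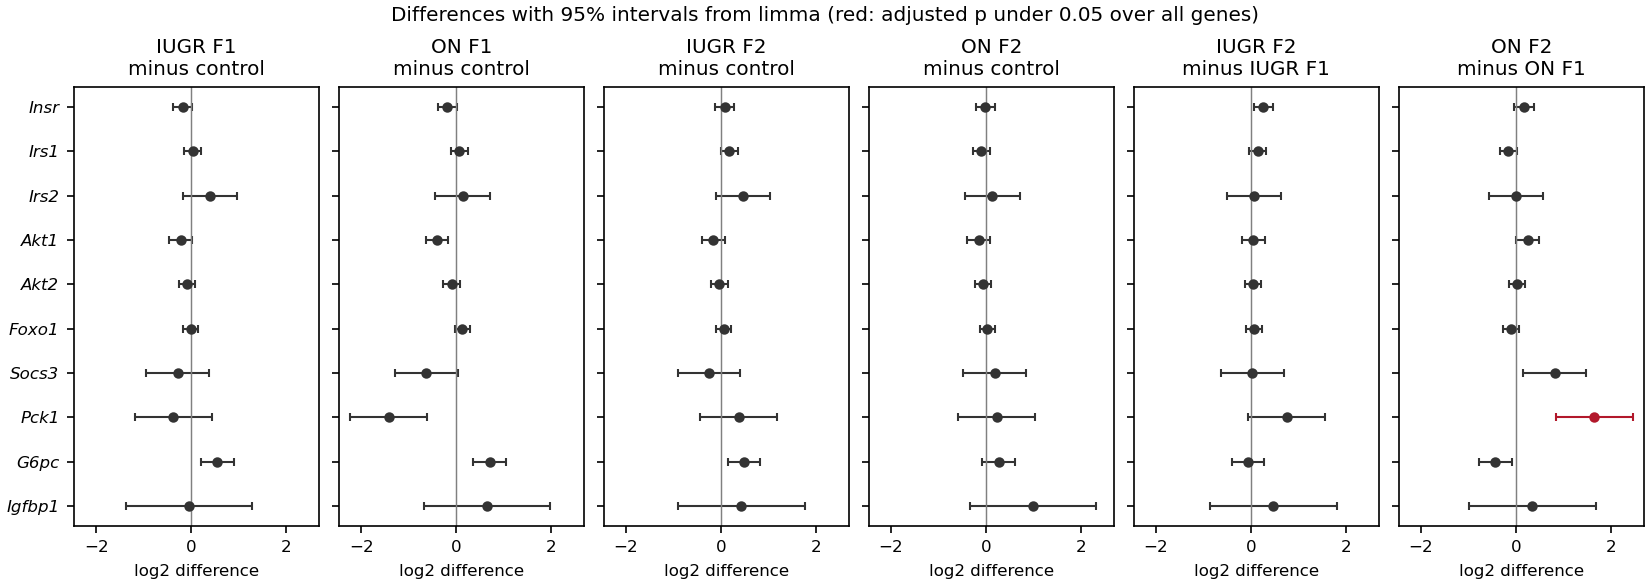
Log2 difference of each gene (x axis) in 6 comparisons, with 95% intervals from limma. Pck1 in ON F2 minus ON F1, in red, is the 1 difference of those plotted that passed over all genes; the intervals of Igfbp1 are the widest.

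Counted over the members, limma called 0 of 10 in IUGR F1, ON F1, IUGR F2 and ON F2 against control, where 0%, 0.022%, 0% and 0% of all genes were called in that order. At an unadjusted p under 0.05 there were 1, 3, 1 and 0 members, against 8.43%, 14%, 7.05% and 15.1% of all genes. G6pc was the 1 in IUGR F1 and in IUGR F2, and in ON F1 the members were G6pc, Pck1 and Akt1.

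Groups did not overlap with control in 2, 5, 3 and 0 members in the same order, against 14.5%, 16.4%, 13.4% and 21% of all genes. In IUGR F1, G6pc lay wholly higher (8.59% of all genes) and Akt2 wholly lower (5.89%). In ON F1, G6pc, Foxo1 and Irs1 lay wholly higher (10.2% of all genes), and Pck1 and Akt1 wholly lower (6.23%). For Irs1 that difference was only 0.06 ± 0.08 (limma adjusted p = 0.788), beside control pools with an SD of 0.003. In IUGR F2, G6pc, Irs1 and Irs2 lay wholly higher (5.29% of all genes) and 0 members wholly lower (8.12%). In ON F2, 0 members lay wholly higher (8.95% of all genes) or wholly lower (12.1%). The median of the members' differences was -0.06, -0.02, 0.12 and 0.08, beside 0.01, 0.02, -0.01 and 0.00 over all genes. For the mean of the 4 groups 2 members, G6pc and Akt1, had an unadjusted p under 0.05 (9.71% of all genes).

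Between the ON generations 4 members had an unadjusted p under 0.05 (19.3% of all genes), Pck1, Socs3, G6pc and Akt1. Pck1 and Socs3 lay wholly higher in ON F2 (7.41% of all genes), and G6pc and Foxo1 wholly lower (14%), so 4 did not overlap (21.4%). For IUGR F2 against IUGR F1 limma called 0 of 10 members (0.011% of all genes), and Insr was the 1 at an unadjusted p under 0.05 (11.4%) and the 1 wholly higher (7.27%; 19.2% without overlap in either direction). For IUGR F1 against ON F1 it called 0 of 10 (0.011% of all genes), with Pck1 the 1 at an unadjusted p under 0.05 (6.35%). Pck1 lay wholly higher there (4.09% of all genes), by 1.04 ± 0.38 (limma adjusted p = 0.709), and Foxo1 wholly lower (5.85%), 2 members in all (9.94%).

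For IUGR F2 against ON F2 limma called 0 of 10 members (0.0055% of all genes), and Irs1 was the 1 at an unadjusted p under 0.05 (10.1% of all genes). Irs1 lay wholly higher (8.79% of all genes) and Socs3 wholly lower (8.27%), 2 members in all (17.1%). In the lineage by generation contrast it called 0 of 10 (0.011% of all genes), with Irs1 the 1 at an unadjusted p under 0.05 (7.71%).

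Across the 15 pools, Pck1 followed Akt1 and Socs3. The 45 pairs of members were compared with permutation tests and p-values adjusted over the 45. Akt1 and Pck1 had a Pearson r of 0.73 (two-sided permutation p = 0.00181, adjusted p = 0.0407) and a Spearman rho of 0.82 (permutation p = 0.00024, adjusted p = 0.0108). Without the 2 pools farthest from the median of Akt1, r was 0.80. Socs3 and Pck1 had r = 0.76 (permutation p = 0.00102, adjusted p = 0.0407) and rho = 0.74 (permutation p = 0.00232, adjusted p = 0.0522), and r was 0.55 without the 2 pools farthest in Socs3.

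Within the groups the relations did not pass. With each value centred on its group mean, r was 0.65 for Akt1 and Pck1 (exact permutation within groups, p = 0.0634, adjusted p = 0.560) and 0.80 for Socs3 and Pck1 (exact permutation p = 0.00437, adjusted p = 0.197). With centred values 0 of 45 pairs passed and 3 had an unadjusted exact permutation p under 0.05, and with Spearman's rho 1 of 45 passed. Akt1 and G6pc had r = -0.67 (permutation p = 0.00572, adjusted p = 0.0858), and -0.30 once centred. The labels name no processing batch, and all pools share 1 RMA normalisation.

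**Figure D4:**
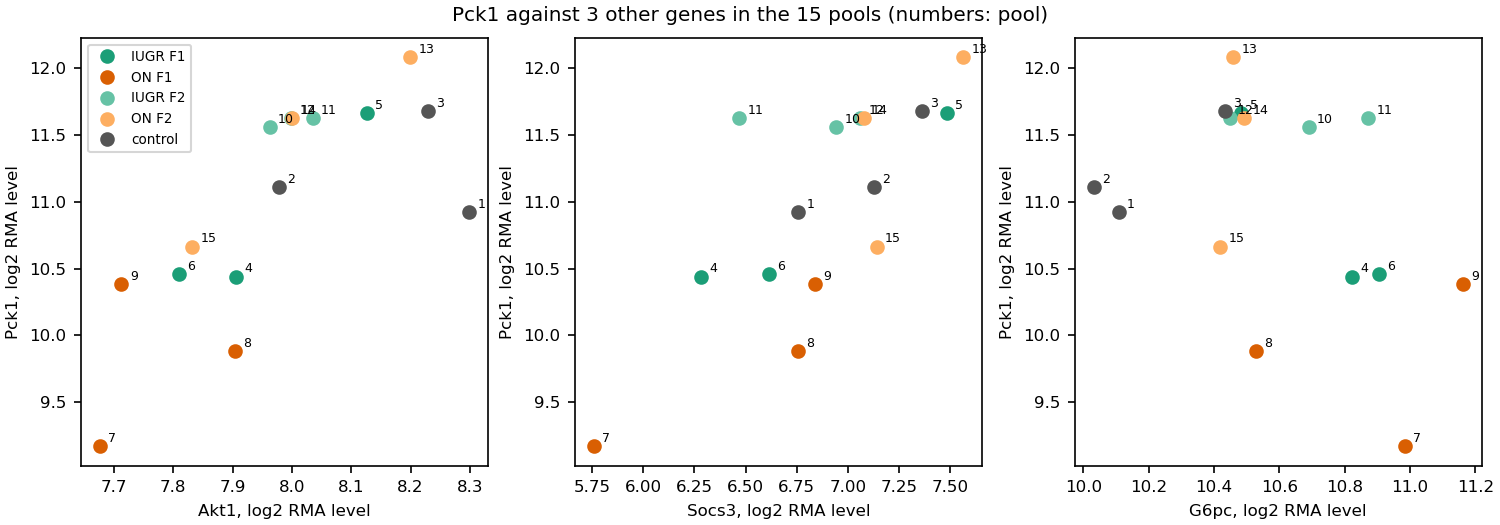
Log2 RMA level of Pck1 (y axis) against Akt1, Socs3 and G6pc (x axes), 1 point per pool with its number. Pool 7 of ON F1 is lowest in Pck1, Akt1 and Socs3, and pool 13 of ON F2 highest in Pck1 and Socs3.

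Among all genes, those with the pattern most like a member's over the 15 pools were listed by Pearson r, as a description. For Pck1 they were the complement gene C8b (r = 0.96), the leukaemia inhibitory factor receptor Lifr (0.93) and Fbxo31 (0.92). C8b ranged from 10.24 to 11.41 where Pck1 ranged from 9.17 to 12.08. For Socs3 they were the cytoskeletal linker Plec (0.91), Moxd2 (0.89) and Cd163l1 (0.87), and for Akt1 they were Edem2 (0.88), Ccdc51 (0.87) and the kinase Csk (0.87). G6pc was most like Nudt16l1 (0.85), the ion cotransporter Slc12a2 (0.82) and 9430085M18Rik (0.80). Igfbp1 was most like Zfp707 (0.81), Lpar6 (0.77) and Mir22hg (0.77), and Irs2 most like Cecr2 (0.78), Sgsm3 (0.76) and the immediate early gene Egr1 (0.75).

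The wider pathway was read from 7 lists with 152 measured genes, of which limma called 0 in each comparison above. At an unadjusted p under 0.05 there were 7, 13, 13 and 18 of the 152 in IUGR F1, ON F1, IUGR F2 and ON F2 against control, 25 in IUGR F2 against IUGR F1, and 35 in ON F2 against ON F1. As shares these were 4.61%, 8.55%, 8.55%, 11.8%, 16.4% and 23%, beside 8.43%, 14%, 7.05%, 15.1%, 11.4% and 19.3% of all genes. The pathway genes thus passed this level at a lower share than all genes in 3 of the 6 comparisons. Some genes lay near the threshold, and 4 passed it under an alternative setting. In the insulin receptor and PI3K cascade (24 measured) list medians lay between -0.04 and -0.02 in the 4 comparisons with control. The adaptor Shc1 had the smallest or second smallest p of this list in each of them. It differed by -0.27 ± 0.14 for IUGR F1, by -0.40 ± 0.14 for ON F1, by -0.34 ± 0.14 for IUGR F2 and by -0.36 ± 0.14 for ON F2. In limma the adjusted p was 0.627, 0.245, 0.689 and 0.253 in that order. All of these Shc1 differences share the same control pools, which had an SD of 0.28. The docking protein Gab1 differed by 0.30 ± 0.08 in ON F2 (limma adjusted p = 0.134).

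Among the brakes on insulin signalling (24 measured), the cytokine-induced inhibitor Socs1 differed from control by 0.29 ± 0.10 in IUGR F1 and 0.34 ± 0.10 in ON F1. It is dim, at 4.49 in ON F1 against 4.15 in control pools. The growth hormone feedback gene Socs2 differed by 0.79 ± 0.33 in IUGR F2 (limma adjusted p = 0.689). Between the ON generations the phosphatase Phlpp1, which takes phosphate from AKT, differed by -0.29 ± 0.09 (limma adjusted p = 0.121).

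Of the gluconeogenesis and glucose release list (23 measured), 19 were negative in IUGR F2 against control, with a median of -0.10, and 12 in ON F1, with a median of -0.01. The widely expressed phosphatase G6pc3, a relative of G6pc, stood at 6.33 in ON F2 and 5.98 in ON F1 pools, a difference of 0.35 ± 0.08 (limma adjusted p = 0.0556). The mitochondrial partner of Pck1, Pck2, pointed the same way as Pck1, at 0.32 ± 0.12 (adjusted p = 0.183). Among the transcription factors of gluconeogenesis (28 measured), 22 were negative in ON F1 against control, with a median of -0.10. Foxa2 differed from control there by 0.45 ± 0.21 and Cebpa by -0.23 ± 0.11.

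Of the FOXO1 and fasting targets (24 measured) the median was -0.09 in ON F1 against control and 0.07 in ON F2 against ON F1. Igfbp2, a binding protein that rises in fasting, stood at 11.56, 11.58 and 10.75 in ON F2 pools and at 10.87, 10.40 and 10.53 in ON F1 pools, a difference of 0.70 ± 0.20 (limma adjusted p = 0.0805). Pdk4, which blocks glucose oxidation and rises in fasting, ran against Pck1. It stood at 4.30, 4.30 and 6.06 in ON F2 and at 7.56, 6.44 and 6.65 in ON F1 pools, a difference of -1.99 ± 0.60 (adjusted p = 0.0939).

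Insulin-induced liver genes (18 measured) had a median of -0.42 in IUGR F2 against control with 14 negative, and of 0.11 in ON F1 with 8 negative. The lipogenic gene Thrsp stood at 11.49, 11.06 and 10.06 in IUGR F2 pools, against 11.96, 12.73 and 11.62 in control pools, a difference of -1.24 ± 0.45 (limma adjusted p = 0.656). Fasn, the fatty acid synthase, pointed the same way, at -0.84 ± 0.31 (adjusted p = 0.668). The transcriptional inhibitor Id1 differed from control by 0.88 ± 0.30 in IUGR F1 and by 0.92 ± 0.30 in ON F1. Relative to the control mean, ON F1 pool 7 had a list median of 0.75, and ON F1 pools 8 and 9 had -0.25 and -0.36. In glycogen metabolism (15 measured) Ppp1r3c, which targets a phosphatase to glycogen, stood at 10.47, 9.99 and 10.28 in ON F2 and at 11.11, 11.02 and 10.99 in ON F1 pools. The groups did not overlap, and the difference was -0.79 ± 0.19 (limma adjusted p = 0.0510).

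**Figure D5:**
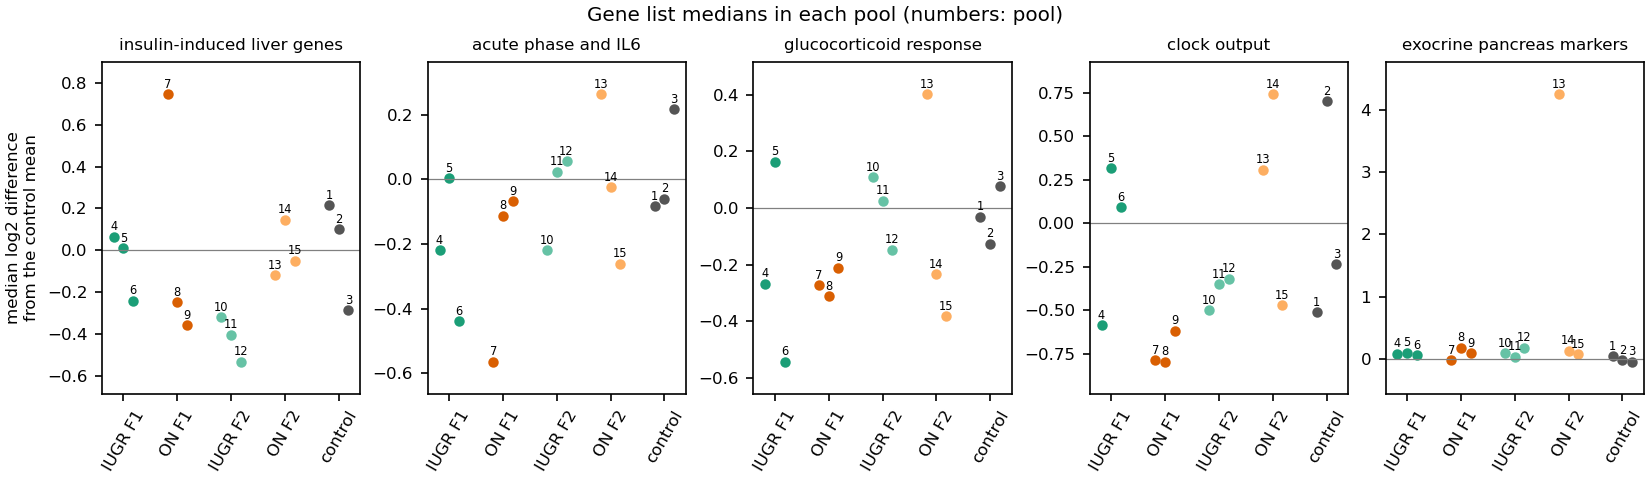
Median log2 difference from the control mean (y axis) over 5 gene lists in each pool (points, numbered). Insulin-induced genes are highest in ON F1 pool 7, where acute phase genes are lowest, and exocrine pancreas genes are high in ON F2 pool 13.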

How the data were processed

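Whole liver of male mice was measured on 15 arrays, 1 pool each. The deposited log2 values come from RMA, as named in the submitters' processing notes, 1 per probe set and array. That method subtracts background, equalises array distributions and fits 1 level to each probe set's probes, and near background it shrinks differences. Its version was not given in the sources used here. No scanner files were used.

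Of 45101 probe sets, 64 controls were left out, and 34945 carried 1 symbol, 932 several and 9160 none, by GEO's platform annotation. 0 symbols changed on matching to the GRCm38.p6 RefSeq table.

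Differences were fitted with limma 3.58.1 in R 4.3.3, as 5 group means over all arrays with 4.69 prior and 10 residual degrees of freedom. Tests were two-sided with Benjamini-Hochberg adjustment over 18193 genes at 0.05. The median SE of a difference was 0.104, with precision set by the number of arrays. Nothing in the labels ties pools to litters, and p-values therefore reflect only how these pools spread, which may be technical. No scan date or slide was given in the sources used here. On simulated data for ON F1 against control with 18193 genes, 200 of them changed in each of 10 runs, 62.5% of changes of 0.5, 95.8% of changes of 1 and 99.2% of changes of 2 (log2) were recovered, with 9.5 false calls a run. Changed genes were drawn from all genes, most of which vary less than Pck1, Igfbp1, Socs3 or Irs2, so these shares are not the power for such members. Noise was drawn separately for each gene, without states of a pool that move many genes together, so the shares may not hold for the real arrays. On those arrays Pck1 at -1.42 and G6pc at 0.70 were not called in this comparison. A missing call is therefore not evidence of no change. Correlations used 100000 permutations, or all 7776 arrangements within groups.

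The members, lists and tests were chosen with earlier results of these data known. The rule names all members, the 2 genes with the smallest p in each pathway list and comparison where none passed, and the 3 genes most correlated with each of 6 members. Of the list genes only some are printed, chosen with their values seen, and so were Sox9, Dbp and Saa1. Alternatives with acute phase or glucocorticoid scores, and without pools 8 and 13, were added after seeing the data.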

Additional observations from a re-analysis of the deposited data

Results flagged for a closer look

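Pck1 differed between the ON generations by 1.64 ± 0.38 (limma adjusted p = 0.0470, higher in 3 of 3 ON F2 pools than in any ON F1 pool). Since both groups are set against the same control pools, this is the difference between the ON F2 difference of 0.22 ± 0.38 and the ON F1 difference of -1.42 ± 0.38, and it drew attention because the test of that difference itself passed. Beside it, Dbp stood between 6.54 and 10.71 in ON F2 and between 5.34 and 6.23 in ON F1 pools. The exocrine pancreas list stood at 9.08 in pool 13, and Pck1 was highest in the same pool. With the clock output score as a covariate the difference was 1.06, and without pool 13 it was 1.33, neither past the threshold. With the glucocorticoid response score as a covariate it was 1.26 (adjusted p = 0.0127) and with the acute phase score 1.21 (adjusted p = 0.0342), both past it. Both of these scores were added as covariates after the data were seen.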

How the results depend on the processing

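Counts of members called were recomputed under 220 alternatives over 11 comparisons. In 10 comparisons the count stayed at 0. For ON F2 against ON F1 it was 1 as reported and 0 with the gene table quantile normalised again (adjusted p of Pck1 0.0540), with a gene's probe sets averaged (0.0956), array weights (0.0887), the clock score (0.421) or actin ratio (0.0565) as a covariate, with only the 2 groups in the fit (0.174), and without pools 8 and 13 together (0.151). Leaving out single pools gave 0 to 1, with 0 without ON F1 pools 7 (0.145) or 8 (0.0780) and ON F2 pools 13 (0.122) or 14 (0.166). The cause was not tested. Of 45 pairs of members 2 passed by r, 1 by rho and 0 once centred on groups.

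Of 55 member differences of at least 1 SE, 4 changed sign in some setting. Pck1 in IUGR F1 against control became 0.047 with the acute phase and 0.15 with the glucocorticoid score, and in the mean of 4 groups against control 0.033 and 0.15. Socs3 in that mean became 0.051 with the glucocorticoid score. In IUGR F1 against ON F1, Socs3 ranged from -0.0026 to 0.60 with single pools left out. With averaged probe sets Mdh1 (IUGR F1 against control) became -0.024, Got2 and Prkaca (IUGR F2 against control) 0.017 and -0.021, and Foxo4 (ON F2 against control) 0.028. Of the other pathway genes, 4 passed in some setting, all in ON F2 against ON F1. They were G6pc3 in 6 settings (lowest adjusted p 0.0328), Ppp1r3c with dim genes left out (0.0424) or a variance trend (0.0444), Igfbp2 without pool 15 (0.0217) and Id2 with the acute phase score (0.0342). Over all genes, ON F2 against ON F1 had 261 calls as reported, 19 to 313 with single pools left out and 3 to 365 otherwise. ON F1 against control had 4, 0 to 21 and 0 to 6, and the F test over groups 34, 7 to 40 and 9 to 53. The other comparisons had 0 to 2 as reported and 0 to 15 otherwise. No paired analysis was possible because no label links a pool of sons to a pool of fathers. The fit of only the compared groups was not run for the mean of 4 groups and the F test, which already use all groups.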

Other observations

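ON F1 pool 7 lay at an end of the range for several of these genes at once. It was the lowest of 15 in Pck1 (9.17), Socs3 (5.76) and Akt1 (7.68), and the highest in Foxo1 (8.05). Its acute phase gene Saa1 stood at 9.14, against 13.40 to 13.88 in control pools, and its insulin-induced list median was 0.75 above the control mean. Igfbp1, which insulin represses, was also high in this pool, at 9.06, where control pools had 7.00 to 7.62. IUGR F1 pool 5 lay at the other side of its group, with Pck1 at 11.66 and Socs3 at 7.48, against 10.44 and 6.28 in pool 4, and its Igfbp1 was low at 6.57. These pools were singled out after their values were seen.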
